A study of Mus musculus with 16 samples.

Results

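Extracellular vesicles of bleomycin-injured lungs were compared between mice lacking syndecan-1 and wild-type mice, across every abundant miRNA of the vesicles. The comparison used 8 of the 16 small RNA libraries of the series, 4 labelled C57BL/6-Sdc1-/- and 4 labelled C57BL/6-wildtype, all made from vesicles of bronchoalveolar lavage fluid after 21 days of bleomycin. The other 8 libraries, 4 Sdc1-/- and 4 wild type, came from normal lungs of control animals given PBS, and served to estimate the spread and to show the same genotype difference without injury. Of 1907 miRNAs in the deposited table, 325 reached 10 CPM (counts per 1e+06 miRNA reads of a library) in at least 4 of the 16 libraries, and all 325 were tested. The labels do not say whether each library is a separate mouse or a pool, and p-values accordingly cover only the variation among these libraries. Sdc1 mRNA is not part of a miRNA table, so the genotype rests on the labels.

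Sdc1 encodes syndecan-1, a proteoglycan that carries heparan sulfate chains on the surface of epithelial cells, and syndecans are known to take part in the formation of exosomes together with syntenin and ALIX. Bleomycin injures the lung epithelium and is widely used to model fibrosis. Vesicles shed into the airway lining carry miRNAs, short RNAs that repress messenger RNAs mainly through pairing of their seed, bases 2 to 8 from the 5′ end, so miRNAs that share a seed share many predicted targets.

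The mature sequences of the miRNAs on which the comparison turns are given 5′ to 3′ with the seed in capitals, from RefSeq on GRCm38.p6, which held 280 of the 325 tested miRNAs. MiR-142a-3p and miR-142b are shown because they were the only miRNAs that passed the test, miR-32-5p because it came next, and the others because they belong to the families described further on. The hairpin of Mir142 is added last, with both mature arms of miR-142a in capitals.
miR-142a-3p: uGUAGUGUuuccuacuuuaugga
miR-142b: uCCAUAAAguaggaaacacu
miR-32-5p: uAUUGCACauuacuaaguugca
miR-335-3p: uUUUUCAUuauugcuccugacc
miR-34b-5p: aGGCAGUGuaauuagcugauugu
miR-449a-5p: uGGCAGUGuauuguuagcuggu
miR-542-3p: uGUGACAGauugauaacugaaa
miR-450b-5p: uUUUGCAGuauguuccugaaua
miR-503-5p: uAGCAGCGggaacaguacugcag
miR-101a-3p: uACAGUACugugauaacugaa
miR-10a-5p: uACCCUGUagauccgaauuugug
miR-10b-5p: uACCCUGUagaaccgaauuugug
Mir142 hairpin: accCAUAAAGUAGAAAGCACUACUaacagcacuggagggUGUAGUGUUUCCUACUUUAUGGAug

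The 8 bleomycin libraries held between 2202990 and 7802229 miRNA reads, so 1 read was worth 0.128 to 0.454 CPM. The Sdc1-/- libraries resembled each other more closely than the wild-type libraries did. Correlation of log2 values across the 325 miRNAs, a description over features that share their libraries, ran from 0.969 to 0.991 among Sdc1-/- libraries and from 0.897 to 0.972 among wild-type libraries. The median SD of a miRNA between libraries was 0.42 on the log2 scale in Sdc1-/- and 0.73 in wild type, and it was smaller in Sdc1-/- for 288 of the 325. Wild-type libraries 1 and 3 stood furthest out on the first principal component, at -15.1 and 16.3, against -6.58 to 8.20 for the Sdc1-/- libraries, and this component fell with depth over the 8 libraries (r = -0.734, exact permutation p = 0.0393; Spearman's rho = -0.810, p = 0.0218; no other such relation was computed). Over the 6 libraries left without wild-type library 3 and Sdc1-/- library 2 it did not pass the test (r = -0.575, exact permutation p = 0.226). Epithelial miRNAs of the miR-200 family summed to between 34785 and 57058 CPM in Sdc1-/- and between 17282 and 52887 CPM in wild type, and the liver and muscle miRNAs to 1319 to 2694 CPM in Sdc1-/- and 489 to 3103 CPM in wild type.

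After bleomycin 1 blood-cell miRNA was higher in the vesicles of Sdc1-/- mice, and no miRNA passed the test in the other direction. MiR-142a-3p, which is made in cells of the blood lineages, was read at 22.0, 18.3, 22.1 and 44.3 CPM in the 4 Sdc1-/- libraries, against 6.42, 5.92, 11.3 and 1.99 CPM in the 4 wild-type libraries. The groups did not overlap, and Sdc1-/- library 4 lay far above the other 3 of its group. These values rest on 76, 143, 96 and 196 reads in Sdc1-/- and 29, 16, 25 and 14 reads in wild type. MiR-142a-3p rose by 1.47 on the log2(CPM + 5) scale (SE 0.31; limma, Benjamini-Hochberg adjusted p = 0.0230), with means of 26.7 ± 11.9 CPM in Sdc1-/- and 6.42 ± 3.84 CPM in wild type (SD, n = 4 each). It met the filter of 10 CPM in at least 4 libraries only through these Sdc1-/- libraries, the group where it was high. Among all the other libraries, normal lungs included, only wild-type library 3 after bleomycin reached 10 CPM. The added 5 CPM shrinks the difference of a miRNA this rare, and edgeR on the recovered reads put it at 2.21 with an adjusted p of 0.0881.

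Limma called 2 of the 325 miRNAs (0.615%), miR-142a-3p and miR-142b, but both carry the same values in every library. Their genes lie on opposite strands of 1 locus: the Mir142 hairpin is at chr11:87756864-87756927 on the + strand (GRCm38.p6), in an intron of the noncoding gene Mir142hg, with miR-142a-3p at 87756903 to 87756925 and miR-142b at 87756906 to 87756925 on the - strand. As printed above, miR-142b is the reverse complement of 20 of the 23 bases of miR-142a-3p. Reads of the pair therefore cannot be told apart here, and the values count as 1 signal. With each of the 8 pairs of identical profiles counted once, 1 of 317 was called, with an adjusted p of 0.0444.

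The call of miR-142a-3p was close to the threshold. It held in 12 of the 23 other ways of processing that kept the miRNA, with adjusted p between 0.000625 and 0.269 and a log2 difference that stayed positive, between 0.80 and 2.21. It was lost without Sdc1-/- library 1 (adjusted p = 0.0522), 3 (0.0527) or 4 (0.0718), and without wild-type library 1 (0.0606), 2 (0.05004) or 4 (0.0915). It was also lost in a fit of the 8 bleomycin libraries alone (0.179), with a pseudocount of 1 (0.0821), and after correction of each library for the GC content of the miRNAs, where the difference was 1.14 (0.269).

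**Figure D1:**
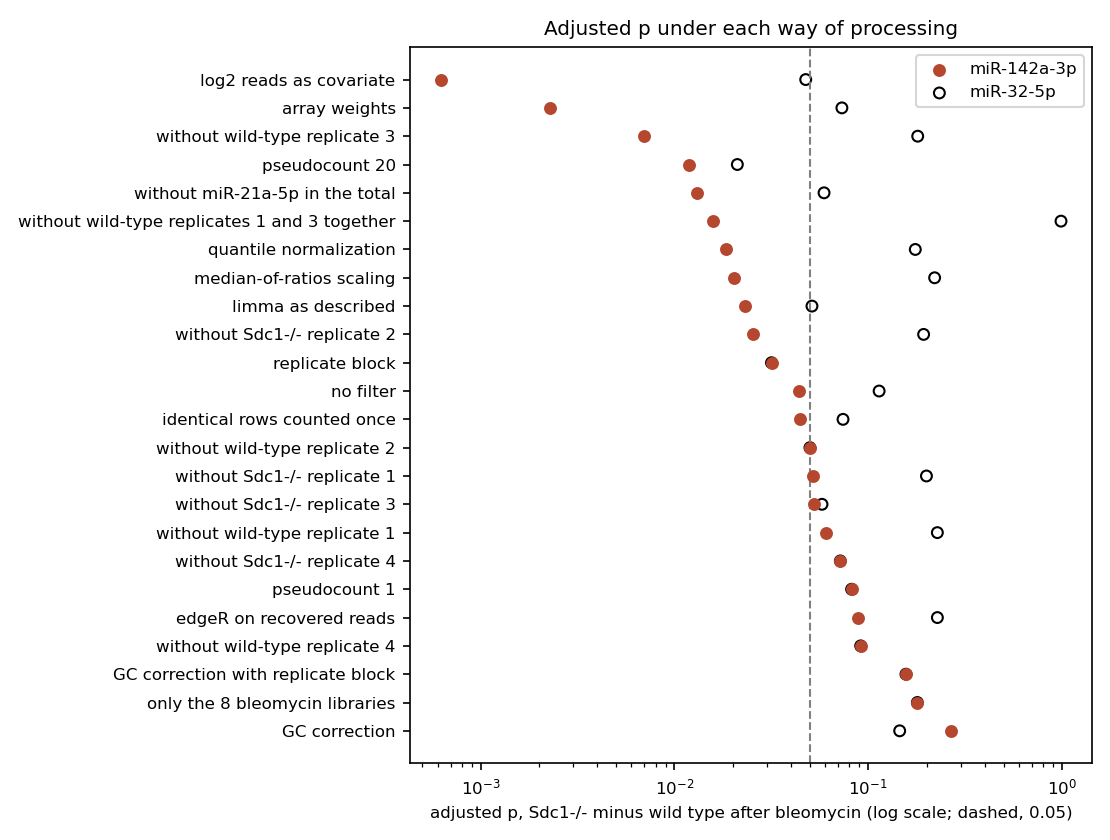
Limma or edgeR adjusted p (x axis, log scale) of miR-142a-3p (filled) and miR-32-5p (open) for the difference Sdc1-/- minus wild type after bleomycin, one line per way of processing, with the 0.05 threshold dashed. MiR-142a-3p lies between 0.000625 and 0.269 and crosses the threshold about midway through the list, and miR-32-5p lies left of it in 3 settings.

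The other arm of the same hairpin, miR-142a-5p, was at 73.3, 15.5, 78.6 and 23.7 CPM in Sdc1-/- and 1.77, 18.1, 86.3 and 6.81 CPM in wild type. These groups overlapped widely, and the log2 difference of 1.13 (SE 0.67) was not called (limma adjusted p = 0.585). MiR-223-3p, of myeloid cells, was at 42.3, 35.4, 58.5 and 45.9 CPM in Sdc1-/- and 3.54, 37.7, 68.1 and 29.4 CPM in wild type, and was not called either (0.69, adjusted p = 0.684). Of the 9 blood-cell and leukocyte miRNAs tested, 8 had a higher mean log2 level in Sdc1-/- and 1 was called, with a median log2 difference of 0.48 against 0.04 for all 325. That median was 0.07 without wild-type library 1, with 6 of 9 higher, 0.22 without wild-type library 4, 1.10 without wild-type library 3, 0.31 without Sdc1-/- library 1 and 0.79 without Sdc1-/- library 2. The summed level of the list, with the untested miR-511-3p included, was 1212 to 3083 CPM in Sdc1-/- libraries and 886 to 5420 CPM in wild-type libraries. None of the 9 tested had a group mean of 0, and the part of blood-cell vesicles in the miR-142a-3p difference was not tested. In bulk vesicles, more vesicles from a cell type and more miRNA per vesicle cannot be told apart. The 5 erythrocyte miRNAs tested had a median of 0.02, but all except miR-451a are miR-486 rows in pairs of identical values (0.02 and 0.002). MiR-451a differed by 0.81 (limma adjusted p = 0.826). The sum of the list, with identical rows counted once and the untested miR-144 arms included, ranged from 1047 to 4749 CPM in Sdc1-/- and from 558 to 12839 CPM in wild type.

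In normal lungs miR-142a-3p was not higher in Sdc1-/-, but it was rare there. It was at 2.18, 5.45, 1.79 and 0.844 CPM in normal Sdc1-/- and 7.31, 6.26, 4.19 and 2.08 CPM in normal wild type, a log2 difference of -0.40. Every one of these values lay below the level of the CPM filter, and the added 5 CPM shrinks differences at such levels. In normal wild-type library 1, 1 read was worth 0.913 CPM. The size of the genotype difference in normal lungs is therefore uncertain. The genotype difference after bleomycin exceeded that in normal lungs by 1.87 (SE 0.43), the smallest p of any miRNA for that contrast, but it missed the threshold after adjustment (limma adjusted p = 0.0671; 0.000506 to 0.309 over the alternatives). Without wild-type library 3 it passed (adjusted p = 0.0196). No miRNA passed for that contrast with limma (24 at an unadjusted p under 0.05) or edgeR (30). In the normal lungs themselves limma called no miRNA between genotypes, with 58 at an unadjusted p under 0.05, and neither did edgeR, with 67. With array weights, which count divergent libraries less, limma called 191 there, 95 higher and 96 lower in Sdc1-/-.

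Counting miR-142a-3p and miR-142b, 28 of 325 miRNAs (8.62%) had an unadjusted p under 0.05, 19 higher (5.85%) and 9 lower (2.77%) in Sdc1-/-. The levels of 17 (5.23%) did not overlap between the groups, with 10 higher (3.08%) and 7 lower (2.15%) in Sdc1-/-. Normal lungs had 13 (4.0%) without overlap. Across all 325, 174 (53.5%) had a positive difference and the median was 0.04. None of the differences of single miRNAs given next was called, so their values describe these libraries.

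**Figure D2:**
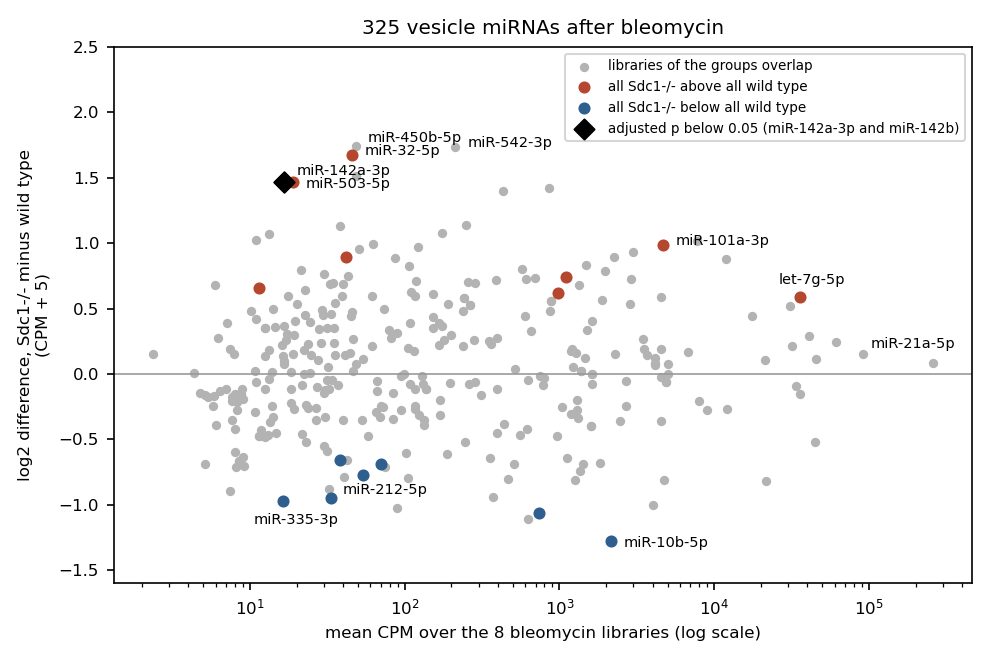
Log2 difference of CPM + 5, Sdc1-/- minus wild type after bleomycin (y axis), against the mean CPM over the 8 bleomycin libraries (x axis, log scale), one point per miRNA. Red and blue points are miRNAs whose Sdc1-/- libraries all lay above (10) or below (7) all wild-type libraries, counting the called pair miR-142a-3p and miR-142b, which is drawn as a black diamond near 16.6 CPM.

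MiR-32-5p came closest to the threshold and was picked out after its values were seen. It was at 81.2, 98.4, 49.1 and 58.1 CPM in Sdc1-/- and 11.7, 33.3, 9.53 and 26.1 CPM in wild type, with no overlap. The log2 difference was 1.68 (SE 0.39, limma adjusted p = 0.0513), and it was called in 3 of 23 alternatives, with a pseudocount of 20 (0.0211), log2 reads as a covariate (0.0476) or the replicate block (0.0317). Over all 23 the adjusted p reached 0.989. Its hairpin lies at chr4:56895229-56895298 on the - strand, in an intron of Tmem245. It shares its seed with the far more abundant miR-92a-3p and miR-25-3p, whose differences were -0.36 (adjusted p = 0.900) and -0.08 (0.980), and miR-32-5p was higher in normal Sdc1-/- too (0.92). The summed level of the AUUGCAC seed family, whose other tested member is miR-92b-3p and whose sum also takes in members too rare to test, was 3720 ± 1437 CPM in Sdc1-/- and 5727 ± 5930 CPM in wild type.

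MiR-335-3p, processed from an intron of the imprinted gene Mest at chr6:30741299-30741396 on the + strand, had the smallest p among those lower in Sdc1-/-. It was at 6.09, 5.77, 9.91 and 15.1 CPM in Sdc1-/- and 38.5, 15.5, 24.1 and 15.2 CPM in wild type, a log2 difference of -0.97 (SE 0.27, limma adjusted p = 0.182). The groups met without overlapping, since the highest Sdc1-/- library had 15.14 CPM and the lowest wild-type library 15.18 CPM. The opposite arm, miR-335-5p, differed by 0.37 in the other direction (adjusted p = 0.737). The log2 ratio of the 5p to the 3p arm of miR-335 was 0.74 ± 0.50 in Sdc1-/- and -0.60 ± 0.95 in wild type, the smallest p of 79 hairpins with both arms tested, but not past adjustment (difference 1.33, SE 0.39, adjusted p = 0.301).

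No arm ratio of the 79 was called, and 10 (12.7%) had an unadjusted p under 0.05. For miR-34b the ratio was -0.28 ± 0.28 in Sdc1-/- and -2.18 ± 0.93 in wild type, a difference of 1.90 (SE 0.62, adjusted p = 0.301). For miR-30d it was 7.19 ± 0.10 in Sdc1-/- and 8.79 ± 1.46 in wild type, where library 1 reached 10.8 and the other 3 lay between 7.44 and 8.90. MiR-450b (0.67) and miR-106b (1.01) also leaned to the 5p arm in Sdc1-/-, each with an adjusted p of 0.301.

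The miR-34 and miR-449 miRNAs, whose 5p arms share the GGCAGUG seed and which are known from multiciliated airway cells, were among the higher ones without a call. MiR-34b-5p was at 102.6, 27.6, 97.7 and 69.6 CPM in Sdc1-/- and 11.1, 21.8, 42.2 and 14.9 CPM in wild type (log2 difference 1.51, SE 0.46, limma adjusted p = 0.252), and of the alternatives only array weights called it (1.89, adjusted p = 0.0205). Here 3 of the 4 Sdc1-/- libraries exceeded every wild-type one, and library 2 did not. MiR-34c-5p, the most abundant of them, was at 12480, 3817, 13218 and 10990 CPM in Sdc1-/- and 2039, 5612, 10451 and 3447 CPM in wild type (1.02, adjusted p = 0.540). MiR-449a-5p, from an intron of Cdc20b, was at 519, 150, 415 and 274 CPM in Sdc1-/- and 65.4, 154, 312 and 110 CPM in wild type (1.14, adjusted p = 0.542). The groups overlapped for both miRNAs. Of the 6 family arms tested 5 were higher in Sdc1-/- and 0 were called, with a median difference of 0.70 that ranged from 0.39 to 1.23 over the alternatives (0.42 without wild-type library 1, 1.23 without wild-type library 3, 1.15 without Sdc1-/- library 2). MiR-34b-3p was the exception at -0.39.

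The miR-322 and miR-503 cluster, hairpins on the - strand of the X chromosome between 53047997 and 53054349 whose members are known as inhibitors of the cell cycle, had the highest median of the lists described other than the one remembered from the publication, 1.0 (0.54 to 1.34 over the alternatives). Of 10 arms tested 9 were higher in Sdc1-/-, 5 had an unadjusted p under 0.05, and 0 were called. MiR-542-3p was at 430, 208, 361 and 238 CPM in Sdc1-/- and 33.9, 268, 109 and 50.4 CPM in wild type (1.74, SE 0.59, limma adjusted p = 0.333). MiR-450b-5p was at 91.3, 47.8, 98.6 and 53.8 CPM in Sdc1-/- and 9.30, 58.4, 19.1 and 6.38 CPM in wild type (1.74, SE 0.56, adjusted p = 0.315). In both cases wild-type library 2 lay inside the Sdc1-/- range, and the other 3 wild-type libraries lay below it. Only miR-503-5p of the cluster was without overlap, at 43.8, 25.4, 38.2 and 14.2 CPM in Sdc1-/- and 4.43, 13.3, 10.4 and 2.84 CPM in wild type (1.47, SE 0.52, adjusted p = 0.382). MiR-351-5p ran the other way at -0.34. The cluster median in normal lungs was 0.48.

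**Figure D3:**
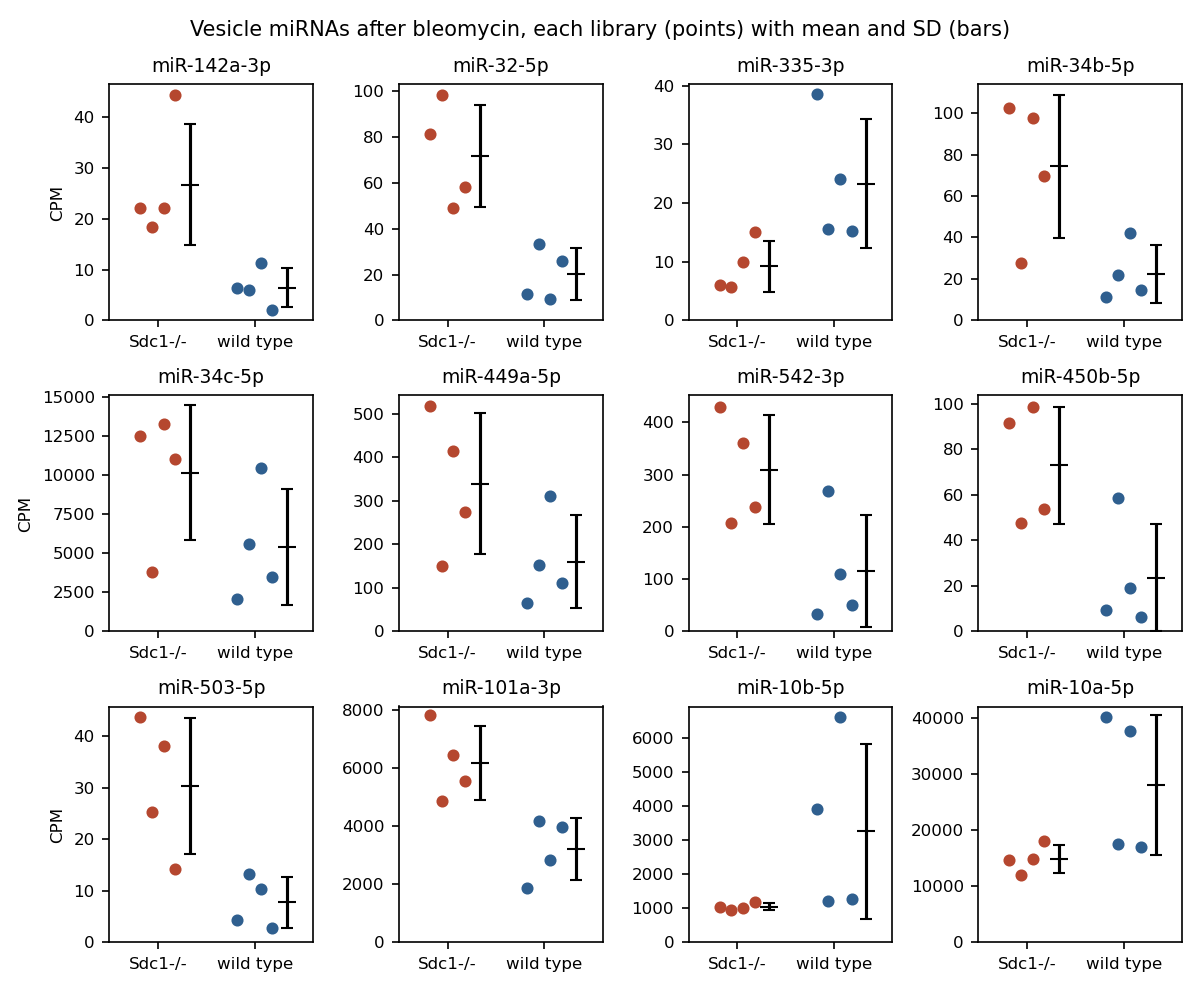
CPM of 12 miRNAs in each bleomycin library (points; Sdc1-/- red, wild type blue), with the group mean and SD as bars. MiR-142a-3p, miR-32-5p, miR-503-5p and miR-101a-3p lie higher in all Sdc1-/- libraries, miR-335-3p and miR-10b-5p lower, and the groups of the other 6 miRNAs overlap.

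MiR-101a-3p, which targets the histone methyltransferase Ezh2, was, after let-7g-5p, the most abundant miRNA whose Sdc1-/- libraries all lay above the wild-type ones. It was at 7837, 4860, 6447 and 5578 CPM in Sdc1-/- and 1891, 4182, 2831 and 3973 CPM in wild type (0.98, SE 0.42, limma adjusted p = 0.537), and its difference in normal lungs was 1.06. MiR-101b-3p, from a second locus, differed by 0.89 (adjusted p = 0.540), and miR-26b-5p by 0.74 with 1267 to 1469 CPM in Sdc1-/- and 498 to 1007 CPM in wild type (adjusted p = 0.579). Let-7g-5p was at 33719 to 54151 CPM in Sdc1-/- and 22337 to 33234 CPM in wild type, without overlap (0.59, adjusted p = 0.556). Its difference in normal lungs was 0.59 as well. The remaining miRNAs with all Sdc1-/- libraries above all wild-type libraries, named here after their values were seen, were miR-21a-3p (0.66, called with array weights at an adjusted p of 0.0117), miR-340-5p (0.62) and miR-135b-5p (0.90).

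The miR-10, miR-99, miR-100 and miR-125 miRNAs, ancient families of which miR-10a and miR-10b lie within Hox gene clusters, ran lower in Sdc1-/- without a call. All 7 had a negative difference, with a median of -0.81 (-1.02 to -0.30 over the alternatives; -0.53 without wild-type library 1 and -0.30 without wild-type libraries 1 and 3), and 2 had an unadjusted p under 0.05. MiR-10b-5p was at 1026, 952, 1003 and 1196 CPM in Sdc1-/- and 3911, 1224, 6632 and 1281 CPM in wild type (-1.28, SE 0.53, limma adjusted p = 0.537). The groups did not overlap, but wild-type libraries 2 and 4 lay close to the Sdc1-/- range while libraries 1 and 3 stood far above it. MiR-10a-5p, with the same seed, was at 14647, 12010, 14909 and 18075 CPM in Sdc1-/- and 40179, 17521, 37760 and 17119 CPM in wild type (-0.82, adjusted p = 0.540). Without wild-type libraries 1 and 3 the difference of miR-10b-5p was -0.27 and that of miR-10a-5p -0.23. MiR-100-5p, at -1.0 after bleomycin, was at 1.51 in normal lungs, a change between conditions that was not called (interaction limma adjusted p = 0.623).

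MiR-212-5p, which is processed from the same transcript as miR-132, was at 21.7, 20.1, 16.1 and 20.8 CPM in Sdc1-/- and 85.5, 39.9, 33.1 and 27.9 CPM in wild type, without overlap (-0.95, SE 0.32, limma adjusted p = 0.333). In normal lungs its difference was 0.54, and the change between conditions, -1.49, was not called (adjusted p = 0.396). The opposite arm, miR-212-3p, differed by only -0.11 and miR-132-3p by -0.16 (limma adjusted p = 0.924 for each). The others lower in all Sdc1-/- libraries were miR-224-5p (-1.06), miR-125b-1-3p (-0.77), miR-7688-5p (-0.66) and, named after its values were seen, miR-195a-3p (-0.69). The groups of miR-224-5p nearly met, at 628.4 CPM in the highest Sdc1-/- library and 629.1 CPM in the lowest wild-type library. For miR-195a-3p these values were 54.9 and 55.0 CPM. MiR-222-3p (-0.94), miR-127-3p (-1.03) of the imprinted Dlk1-Dio3 region and miR-423-3p (-1.11) overlapped between groups.

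The miRNAs that filled the vesicles did not pass the test. MiR-21a-5p, known to be raised in injured and fibrotic tissue, took 22.4, 32.4, 20.03 and 31.0% of reads in Sdc1-/- and 28.0, 22.7, 16.1 and 34.8% in wild type. The groups overlapped fully and the difference was 0.09, with a 95% interval from -0.62 to 0.79. The next most abundant, let-7i-5p (0.16), let-7c-5p (0.25), let-7f-5p (0.11), miR-30d-5p (-0.52), miR-148a-3p (0.29) and miR-26a-5p (-0.16), had limma adjusted p between 0.694 and 0.966. The top 10 miRNAs of each library accounted for 69.9% ± 4.83 of reads in Sdc1-/- and 69.7% ± 9.28 in wild type (two-sided exact permutation p = 1, adjusted p = 1 over 5 library measures; the smallest p that 4 against 4 allows is 0.0286). A library held 285 ± 8.29 miRNAs at 10 CPM or more in Sdc1-/- and 283.5 ± 32.0 in wild type (exact permutation p = 0.943, adjusted p = 1).

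By list, no miRNA other than miR-142a-3p was called. Higher medians in Sdc1-/- were those of the miR-26 and miR-101 list (0.82, 3 of 4 higher), the miR-17-92 clusters of proliferating cells (0.63, 6 of 8), the miR-29 family, known to restrain collagen genes (0.54, 3 of 3), and the miR-200 family (0.40, 7 of 8). Without wild-type library 1 the median was 0.24 for the miR-29 family (2 of 3 higher), 0.20 for the miR-200 family (5 of 8) and 0.36 for the miR-17-92 clusters. The miR-29 median was 0.30 without Sdc1-/- library 1, the miR-200 median was 0.67, 0.62 and 0.20 without wild-type library 2, 3 and 4, and the miR-26 and miR-101 median was 0.52 without wild-type libraries 1 and 3. Lower medians were those of the Dlk1-Dio3 cluster (-0.26, 3 of 11 higher), the endothelial list (-0.25, 0 of 4), the mesenchymal list (-0.19, 3 of 10) and the injury and inflammation list (-0.11, 4 of 13). The 4 endothelial rows are arms of the opposite-strand pair miR-126a and miR-126b, and with identical profiles counted once their median was -0.39 over 3. The endothelial median was -0.11, -0.49 and -0.06 without wild-type library 1, 2 and 4 and -0.15 without Sdc1-/- library 1, and the mesenchymal median was -0.13 without wild-type library 4. The other epithelial list (0.14, 5 of 7), the miR-30 family (0.22, 3 of 5), the let-7 family (0.11, 6 of 9) and the liver and muscle list (0.11, 4 of 6) lay near the median of all miRNAs. The medians of these last 4 lists and of the erythrocyte, injury and Dlk1-Dio3 lists changed sign under at least 1 alternative. The most abundant liver and muscle miRNA, miR-1a-3p, differed by 1.42 without a call (limma adjusted p = 0.585). Its mean was 1186 CPM in Sdc1-/- and 530 CPM in wild type. A list of 4 miRNAs was remembered from the publication of the study without being checked against it, of which 3 were tested and all 3 were higher in Sdc1-/- (median 1.47), namely miR-34b-5p, miR-142a-3p and miR-503-5p. If the study chose these on the same libraries, they are not independent evidence.

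**Figure D4:**
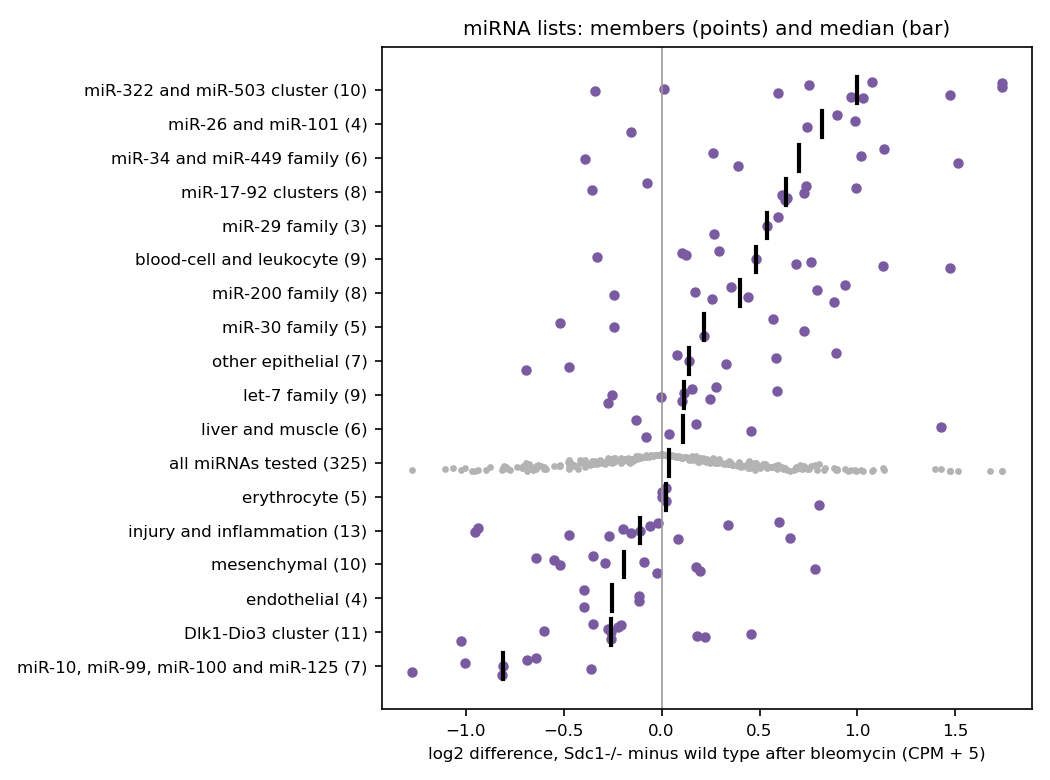
Log2 difference of CPM + 5, Sdc1-/- minus wild type after bleomycin (x axis), for the tested members of 17 miRNA lists and for all 325 miRNAs (grey), with the median of each as a bar and the number tested in brackets. The miR-322 and miR-503 cluster lies highest with a median of 1.0 and the miR-10, miR-99, miR-100 and miR-125 list lowest with -0.81.

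The differences were graded by the base composition of the miRNAs. The 94 miRNAs with at most 42.9% G and C had a median difference of 0.36 and 75 of them were higher in Sdc1-/-, and the middle 92 had 0.02 with 49 higher. The 94 with at least 52.2% G and C had -0.21, with 27 higher. Without wild-type library 3 the highest class had a median of 0.13 with 54 higher, and the gap between the lowest and the highest class was 0.37 against 0.57 with all libraries. Without wild-type libraries 1 and 3 the highest class had 0.04 with 52 higher. Across the 280 miRNAs with a sequence, which share the 8 libraries, the correlation of the difference with GC content was -0.449 after bleomycin and -0.332 in normal lungs, given as a description. The log2 level relative to each miRNA's mean over the 16 libraries, regressed on GC content within a library, had slopes per 10 points of -0.18, -0.30, -0.18 and -0.26 in the Sdc1-/- libraries and 0.01, -0.07, 0.28 and -0.17 in the wild-type libraries, so the groups did not overlap, though the lowest wild-type slope lay next to the Sdc1-/- ones. Among the miRNAs described, miR-142a-3p has 34.8% GC, miR-32-5p, miR-542-3p and miR-450b-5p each 31.8%, miR-101a-3p 33.3%, miR-335-3p 36.4%, miR-10a-5p and miR-10b-5p each 43.5%, miR-503-5p 56.5%, miR-100-5p 50% and miR-99b-5p 63.6%. After correction of each library for its slope, 0 of 280 miRNAs were called by limma (19 at an unadjusted p under 0.05). The part of base composition in the single differences was otherwise not tested.

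**Figure D5:**
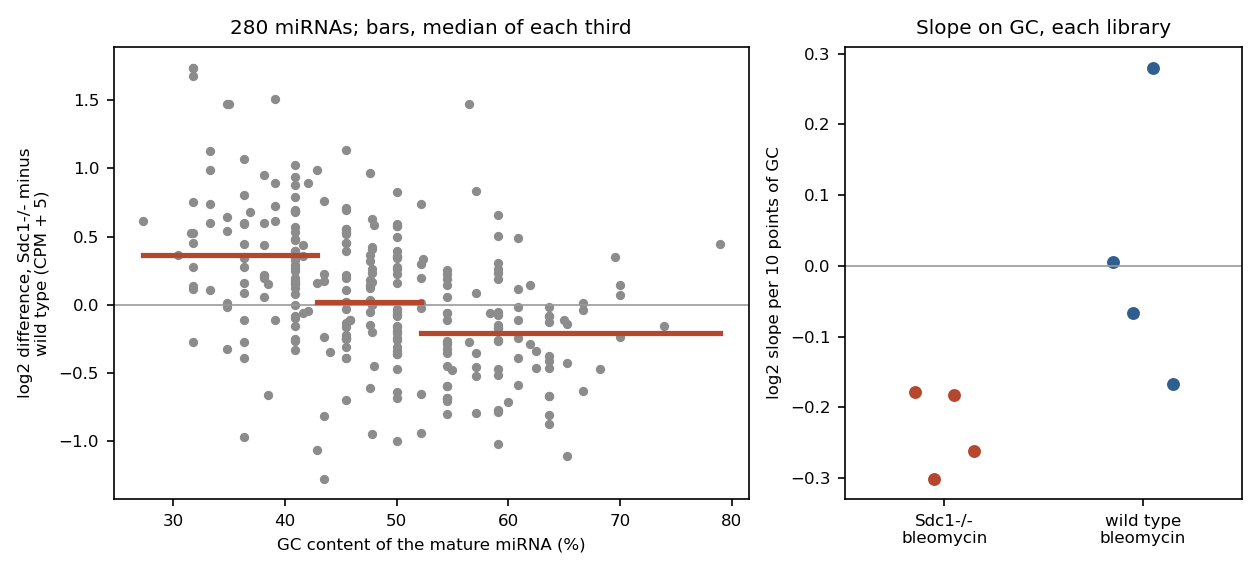
Left, log2 difference of CPM + 5, Sdc1-/- minus wild type after bleomycin, against the GC content of 280 mature miRNAs (%), with the median of each class of GC content as a bar (0.36, 0.02 and -0.21). Right, slope of log2 level on GC content in each bleomycin library, where all 4 Sdc1-/- libraries lie below the 4 wild-type libraries.

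Short motifs were counted as well. The letters GGAG, read on the miRNA strand, were in 23 of 280 sequences (8.21%), with a median difference of -0.11 and 7 higher in Sdc1-/-, against 0.11 for the 257 without them. CCCU was in 20 (7.14%), with a median of -0.31 and 3 higher, against 0.12 for the 260 without it. Both motifs are rich in G and C, and neither was tested apart from base composition.

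Summing miRNAs that share a seed left the same signal. Of 220 seed families limma called 2 (0.909%), GUAGUGU and CCAUAAA, which are miR-142a-3p and miR-142b alone (adjusted p = 0.0125), and 1 of 217 with identical sums counted once (0.0251). Like the single miRNAs, these families met the 10 CPM filter only through the bleomycin Sdc1-/- libraries. Their genotype difference also differed between bleomycin and normal lungs (1.87, adjusted p = 0.0379), but not with identical sums counted once (0.0758), with the replicate block (0.0645) or with a pseudocount of 1 (0.0716). The family difference was lost without wild-type library 4 (adjusted p = 0.0730), and its difference between conditions without Sdc1-/- library 1, 3 or 4 or wild-type library 1, 2 or 4 (0.0576 to 0.109). The ACCCUGU family of miR-10a-5p and miR-10b-5p was at 15954 ± 2584 CPM in Sdc1-/- and 31407 ± 14821 CPM in wild type (-0.86, adjusted p = 0.516). The GGCAGUG family, without miR-34c-5p, which had no sequence to match, was at 605 ± 217 CPM in Sdc1-/- and 332 ± 162 CPM in wild type (0.91, adjusted p = 0.592).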

How the data were processed

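Vesicle RNA from lavage fluid (QIAGEN kit) was sequenced from Illumina libraries, per the labels' protocols. The authors deposited 1 table of CPM per mature miRNA, and columns were matched to samples by title. Bowtie2 2.2.3 and GRCh38, a human build, are named without a role, per the submitters' processing notes. For the read counter, trimming, strand setting and miRNA annotation, the sources used here give nothing. CPM is a share of miRNA reads, so a rise of an abundant miRNA lowers the others. All values were whole multiples of 1 read per library (within 0.001), which gave the depths. Counting limits cover counting error only.

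Log2(CPM + 5) of the 325 miRNAs was fitted with limma 3.58.1 (trend, 4 group means over 16 libraries, 12 residual degrees of freedom; R 4.3.3), with Benjamini-Hochberg adjustment over all 325 at 0.05. EdgeR 4.0.16 on the recovered reads was an alternative, as were other pseudocounts, filters and scalings, GC correction, the replicate number as a block and leaving out each library. Seed families were summed and arm ratios formed per library and fitted the same way. The fit was tested on 20 sets of simulated data with 60 of 325 miRNAs changed. It recovered 22% of 2-fold and 80.7% of 4-fold changes, and 7.37% of its calls were false. The simulated miRNAs varied independently of each other, with the same spread in every group. In the bleomycin libraries the median SD was 0.42 in Sdc1-/- and 0.73 in wild type, so these rates may not carry over. Named miRNAs were those called, filled up to 12 in each direction by smallest p at 50 CPM or more. Also named were the 8 most abundant, up to 4 per list, and the 5 smallest p of the interaction and of the arm ratios. The miRNAs and lists were chosen with earlier results of these data known.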

Additional observations from a re-analysis of the deposited data

Results flagged for a closer look

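Among 88 groups of 4 libraries examined for 1 value far from the rest, 4 stood out, about as many as chance gives at 1 in 20. Sdc1-/- library 4 had 44.3 CPM of miR-142a-3p and of miR-142b, whose values are the same, far above the other 3 Sdc1-/- libraries, and without it the difference from wild type was 1.24 (limma adjusted p = 0.0718). Wild-type library 3 had 2072 CPM of miR-224-5p, against 629 to 723 CPM in the other wild-type libraries. Wild-type library 1 had 3796 CPM of miR-23b-3p, against 671 to 1112 CPM in the others.

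The genotype difference of the miR-142a-3p seed family, and of the identical miR-142b family, was larger after bleomycin than in normal lungs by 1.87 on the log2 scale (limma adjusted p = 0.0379 over 220 families). All 4 bleomycin Sdc1-/- libraries lay above all 4 bleomycin wild-type libraries, but these families met the 10 CPM filter only through those Sdc1-/- libraries. Their values are those of the single miRNA, and every normal-lung value lay below the level of that filter. The same contrast missed the threshold for the single miRNA over 325 miRNAs (adjusted p = 0.0671), and the family contrast missed it without Sdc1-/- library 1, 3 or 4 or wild-type library 1, 2 or 4 (0.0576 to 0.109), with the replicate block (0.0645), with identical sums counted once (0.0758) and with a pseudocount of 1 (0.0716).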

How the results depend on the processing

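The 2 calls after bleomycin became 0 with a pseudocount of 1, with a filter at 100 CPM, which drops miR-142a-3p, with only the 8 bleomycin libraries, with edgeR (31 at an unadjusted p under 0.05) and with GC correction, alone or with the replicate block. They became 4 without a filter and 4 with array weights, which added miR-21a-3p and miR-34b-5p, 1 with identical profiles counted once, and 0 to 2 when 1 library was left out (0 without Sdc1-/- library 1, 3 or 4 or wild-type library 1, 2 or 4). The genotype-by-condition contrast, with 0 calls, had 2 with miR-21a-5p out of the total, with log2 reads as a covariate or without wild-type libraries 1 and 3, 102 with array weights, and 0 to 2 with 1 library left out (2 without wild-type library 3). Seed families, with 2 calls, had 0 with a pseudocount of 1, 1 with identical sums counted once, and 0 to 5 with 1 library left out (5 without wild-type library 2, 0 without wild-type library 4). Their genotype-by-condition contrast, with 2 calls, had 0 with a pseudocount of 1, with the replicate block or with identical sums counted once, and 0 to 2 with 1 library left out. Arm ratios had 0 calls for the bleomycin difference under every alternative, and in normal lungs the replicate block called 1, miR-34b (adjusted p = 0.0262). The cause of these changes was not tested. Counting identical profiles once and GC correction were chosen after seeing the data.

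Nothing in the labels states that replicate numbers pair the libraries. Deviations from the group mean of same-numbered libraries correlated at -0.415, -0.110, 0.757 and 0.191, and those of differently numbered libraries between -0.790 and 0.564. With 4 libraries per group these correlations cannot settle whether the numbers pair them. With the replicate block limma called 3 miRNAs, adding miR-32-5p. The median difference of all miRNAs was 0.04, and -0.11 with edgeR, a shift that touches small differences. No called value reversed. Libraries of 4 per group leave differences of rare miRNAs uncertain.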

Other observations

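All of the 1907 miRNAs except the 325 tested were searched for reads in every bleomycin library of 1 genotype and in none of the other. Of these, miR-491-5p had 2, 1, 1 and 1 reads and miR-96-3p 2, 2, 3 and 1 reads in the 4 bleomycin Sdc1-/- libraries, and both had 0 in all 4 bleomycin wild-type libraries. No miRNA showed the opposite pattern. These counts lie at or under 3 reads, the limit that a count of 0 allows. The Sdc1-/- libraries were also deeper on average, at 5.00e+06 reads against 4.12e+06 in wild type, and the part of depth was not tested.

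The genotype differences after bleomycin and in normal lungs, which share no library, had the same sign for 194 of 325 miRNAs, with a correlation across miRNAs of 0.289 (Spearman's rho 0.321), given as a description over miRNAs that are not independent.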
